A study of Mus musculus with 6 samples.

Results

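Genes of fatty acid oxidation, ketogenesis and the nuclear receptor PPARA were examined in livers of mice with 1 floxed allele of the transcription factor gene Cebpb, deleted in Kupffer cells, the macrophages that live in liver sinusoids. The 34 member genes are a list of named genes of these pathways, looked up among the 17119 gene symbols of the count table. All 34 were in the table and all passed the filter on low counts, with between 13 and 49269 reads per gene and library. The study has 2 groups of 3 liver samples, and every mouse spent 12 weeks on HFHCD, a diet rich in fat and cholesterol. The heterozygous livers (labelled Hete) have the genotype Clec4f-iCre;Cebpbfl/+, and the wild-type livers (WT) come from littermates of the genotype Clec4f-iCre;Cebpb+/+. Both groups thus carry the iCre recombinase, which the Kupffer cell gene Clec4f drives. The genotype labels of replicates 2 and 3 spell the driver Clec5f and Clec6f, and the series design, which names Clec4f throughout, was followed. The sources used here do not give age, sex or batch.

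In hepatocytes, long-chain fatty acids are bound to carnitine to enter mitochondria, where a spiral of dehydrogenases, hydratases and thiolases shortens them to acetyl-CoA. Peroxisomes shorten very long chains, and Cyp4a enzymes of the endoplasmic reticulum oxidise the far end of the chain. The ligand-activated receptor PPARA, paired with RXRA, switches on many of these genes in fasting or when fatty acids are plentiful, and acetyl-CoA that is not burnt is turned into ketone bodies. The members are mainly hepatocyte genes, whereas the floxed allele is deleted in Kupffer cells, so the comparison addresses these genes in whole liver after loss of 1 Cebpb copy in another cell type.

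Library totals ran from 16895322 to 17750755 reads, and members took 0.768% to 1.05% of them in heterozygous and 0.624% to 0.934% in wild-type libraries. Levels are CPM, read counts scaled to library size with TMM factors, and folds are log2 fold changes of heterozygous over wild-type livers ± SE. Of 12706 genes tested with edgeR, 74 passed an adjusted p of 0.05 (0.582%), 3 higher (0.0236%) and 71 lower (0.559%) in heterozygous livers, and leaving out 1 library at a time moved this count. It was 0 without heterozygous replicate 1 or 2, 122 without heterozygous replicate 3, and 4, 6 and 20 without wild-type replicates 1, 2 and 3. Cebpb itself, which many liver cells express, had 204, 498 and 269 CPM in heterozygous and 506, 308 and 340.4 CPM in wild-type replicates (−0.25 ± 0.37, edgeR adjusted p = 0.864). The groups overlapped, so whole-liver Cebpb does not check the labels. All 10 hepatocyte markers listed, Alb among them, were detected. Of 5 adipocyte markers in the table, Adipoq, Plin1 and Retn were at most 0.666 CPM in any library and were not tested. Cfd had 24.2 to 307 CPM in heterozygous and 80.6 to 418 CPM in wild-type livers. Car3, which hepatocytes also express, had 5983 to 7863 CPM in heterozygous and 4484 to 5154 CPM in wild-type livers, with no overlap (0.57 ± 0.15, edgeR adjusted p = 0.112), and its relation to the members was not tested. Because whole tissue was measured, fewer cells of a type and less RNA per cell cannot be told apart.

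No member passed the threshold in either direction in edgeR, the smallest adjusted p being 0.141, but 30 of the 34 had a positive fold change. The positive share of 88.2% stands beside 51.0% of all genes tested. Members were chosen with earlier results of these data known, and many rose or fell in the same libraries. The shares in this paragraph thus describe the list and are not a test of it. The median over members was 0.16, against 0.005 over all genes tested. An unadjusted p under 0.05 was reached by 5 members that were higher in heterozygous livers (14.7%, against 4.20% of all genes) and by 0 that were lower (against 8.996%). These 5 are Acot1, Acot3, Acot4, Crat and Bdh1. All 3 heterozygous libraries lay above all 3 wild-type libraries for 7 members (20.6%, against 7.05% of all genes), namely those 5 with Acadm and Hadha, and below them for 0 members (against 11.3%). DESeq2 called 2 members, Acot1 and Acot3, both higher, at a rate of 0.645% of all genes called higher by that tool. Most differences were small: 24 members had an absolute log2 fold change under 0.5, and the 95% interval of 29 included 0.

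**Figure D1:**
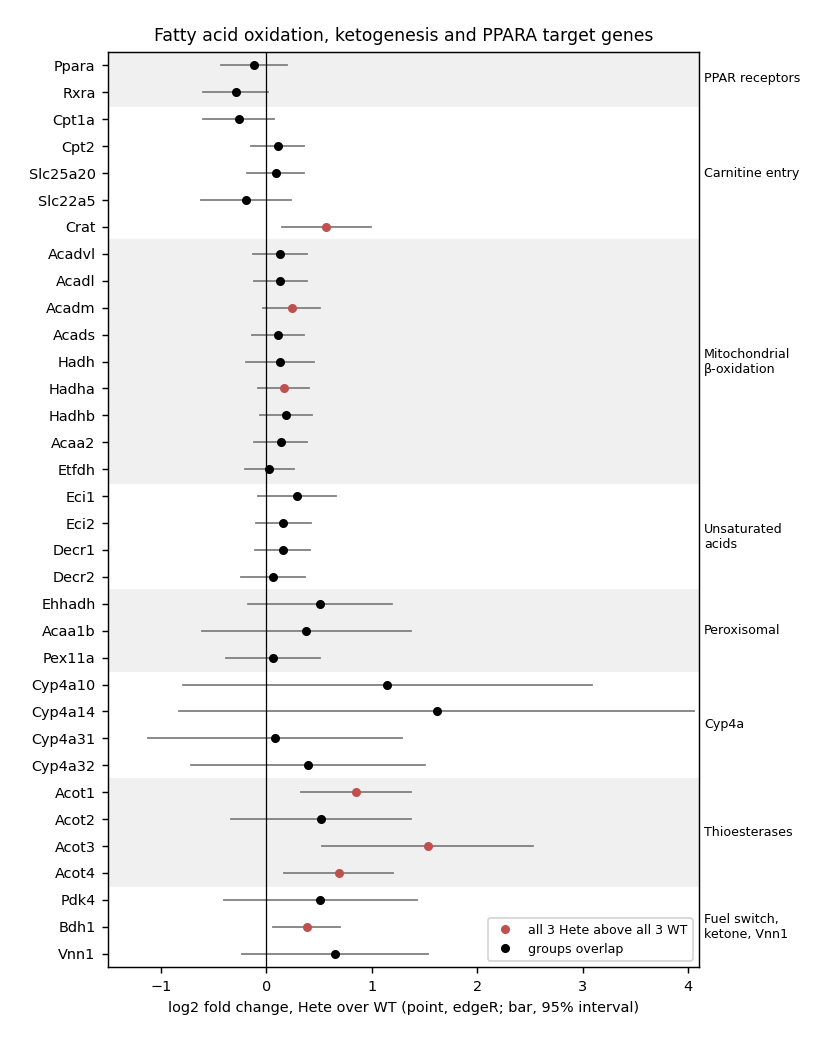
The log2 fold change (heterozygous over wild-type livers) of the 34 member genes on the x axis, by role, with bars for the 95% interval from edgeR. Red points mark the 7 members whose 3 heterozygous libraries all lay above the 3 wild-type libraries, and most points lie slightly to the right of 0.

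The acyl-CoA thioesterases split fatty acyl-CoA into free fatty acid and coenzyme A and are known PPARA targets. All heterozygous libraries lay above all wild-type ones for 3 of these 4 members (against 7.05% of all genes). None of the 4 passed the threshold in edgeR. Their genes stand side by side on chromosome 12 in the order Acot2, Acot1, Acot4 and Acot3. Their promoters are shown because the groups lay apart for 3 of these 4 neighbours. Each sequence runs 5′ to 3′ from 250 bases before the annotated start through the first 50 bases of the transcript, taken from RefSeq for the build GRCm38.p6. Capitals mark the 6-base motif AGGTCA, the unit bound by PPARA and other nuclear receptors, on either strand, and in Acot4 also the 13-base match described below them.
Acot1, chr12:84009252-84009551, + strand: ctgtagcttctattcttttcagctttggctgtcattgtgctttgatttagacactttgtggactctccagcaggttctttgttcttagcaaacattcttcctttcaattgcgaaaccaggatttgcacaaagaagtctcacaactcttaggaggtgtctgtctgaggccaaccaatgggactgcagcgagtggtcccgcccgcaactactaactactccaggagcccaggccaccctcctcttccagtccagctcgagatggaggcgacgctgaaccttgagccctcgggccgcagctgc
Acot3, chr12:84051894-84052193, + strand: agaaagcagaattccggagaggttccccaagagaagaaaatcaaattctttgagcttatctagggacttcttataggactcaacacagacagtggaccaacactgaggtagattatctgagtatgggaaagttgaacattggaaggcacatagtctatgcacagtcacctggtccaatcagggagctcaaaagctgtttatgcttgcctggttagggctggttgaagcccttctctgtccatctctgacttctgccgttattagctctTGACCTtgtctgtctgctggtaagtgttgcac
Acot4, chr12:84038129-84038428, + strand: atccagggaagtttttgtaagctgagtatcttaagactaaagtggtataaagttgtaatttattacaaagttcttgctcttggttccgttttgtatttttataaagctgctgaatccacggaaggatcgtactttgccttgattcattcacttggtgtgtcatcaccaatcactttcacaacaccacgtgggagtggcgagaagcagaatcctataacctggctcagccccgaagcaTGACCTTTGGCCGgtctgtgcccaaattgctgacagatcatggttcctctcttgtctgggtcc
Acot2, chr12:83987611-83987910, + strand: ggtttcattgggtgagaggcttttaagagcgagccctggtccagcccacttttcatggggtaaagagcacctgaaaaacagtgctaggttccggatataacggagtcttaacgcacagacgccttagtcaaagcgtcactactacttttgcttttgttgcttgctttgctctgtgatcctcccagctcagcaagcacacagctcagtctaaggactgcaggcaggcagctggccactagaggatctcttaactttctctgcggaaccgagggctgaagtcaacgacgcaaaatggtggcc

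AGGTCA was found once in Acot3, starting 18 bases after the annotated start, and once in Acot4, starting 13 bases before it, both on the minus strand. Neither Acot1 nor Acot2 holds these letters in this window. The full PPAR:RXR element, AGGTCANAGGTCA on either strand, had no exact match in any of the 30 promoters of the 27 members with an entry, as against 0.0396% of all 32851 promoters in the table. With up to 2 mismatches, 3 of the 30 matched, those of Acot4 (tgacctttggccg, whose first bases are the AGGTCA match), Rxra and Slc25a20, against 3.86% of all promoters. The single motif AGGTCA was present in 7 of the 30 member promoters and in 16.3% of all. Pairs among the 4 Acot promoters were 43.3% to 47.5% identical in a global alignment.

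Acot1, the cytosolic thioesterase, stood at 43.3, 39.1 and 47.4 CPM in heterozygous replicates 1, 2 and 3, against 18.2, 20.1 and 33.8 CPM in the wild-type replicates. All heterozygous libraries lay above all wild-type ones, and wild-type replicate 3 came nearest. The log2 fold change was 0.85 ± 0.23 (95% interval 0.32 to 1.37, edgeR adjusted p = 0.141). DESeq2 called it (0.86, adjusted p = 0.0131). So did edgeR once wild-type replicate 3 was left out (1.18, adjusted p = 0.0421). That library came nearest to the heterozygous ones, so leaving it out widens the difference by design, and the call adds no support. The adjusted p of Acot1 spanned 0.0131 to 0.385 across the edgeR, DESeq2 and limma alternatives.

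Acot3, a peroxisomal thioesterase, had low levels of 4.54, 3.88 and 5.33 CPM in heterozygous replicates, against 0.793, 1.03 and 2.90 CPM in wild-type replicates. The groups did not overlap, and wild-type replicate 3 again lay closest to the heterozygous livers. Its log2 fold change was 1.53 ± 0.44 (edgeR adjusted p = 0.158; DESeq2 adjusted p = 0.0186). Across the edgeR, DESeq2 and limma alternatives the adjusted p of Acot3 spanned 0.0186 to 0.410, and without wild-type replicate 3 the log2 fold change was 2.31 with an edgeR adjusted p of 0.0538. Acot4, which acts in peroxisomes, measured 18.1, 15.8 and 17.1 CPM in heterozygous replicates and 6.89, 10.8 and 13.9 CPM in wild-type replicates, again without overlap (0.68 ± 0.23, edgeR adjusted p = 0.224). Acot2, the mitochondrial form, had 5.53, 2.54 and 7.05 CPM in heterozygous and 3.17, 2.72 and 4.65 CPM in wild-type replicates, and here the groups overlapped (0.52 ± 0.38). Of the 100-base windows of the longest GENCODE M21 transcript, 21.9% for Acot1, 17.1% for Acot2 and 14.3% for Acot3 also occur in a transcript of another gene, mainly of each other for Acot1 and Acot2, so reads may have been dropped or shared there. For Acot4 this share was 0.36%.

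Crat, the carnitine acetyltransferase that buffers mitochondrial acetyl-CoA, was the member of the carnitine group with the largest difference. It had 108, 88.1 and 99.6 CPM in heterozygous replicates, against 51.1, 61.6 and 86.1 CPM in wild-type replicates. The groups lay apart, by a small margin between heterozygous replicate 2 and wild-type replicate 3, with a log2 fold change of 0.57 ± 0.19 (edgeR adjusted p = 0.209; 0.0743 without wild-type replicate 3).

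Cpt1a, the gated entry step that binds long-chain acyl groups to carnitine, pointed the other way. Its levels were 319, 429.6 and 342 CPM in heterozygous and 484, 442 and 381 CPM in wild-type replicates. The groups overlapped, since heterozygous replicate 2 lay above wild-type replicate 3 (−0.26 ± 0.15, 95% interval −0.60 to 0.08, edgeR adjusted p = 0.529). Cpt2, which frees the acyl group inside the mitochondrion, had a log2 fold change of 0.11 ± 0.11, and Slc25a20, the carrier between the 2 carnitine steps, 0.09 ± 0.12. Slc22a5, which imports carnitine into the cell, had a log2 fold change of −0.19 ± 0.19 that turned to 0.08 without wild-type replicate 1, where the gene was highest at 49.8 CPM. Of its 100-base transcript windows, 13.7% are shared with Slc22a21.

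Both receptors had negative log2 fold changes, and neither passed the threshold. Ppara stood at 228, 201 and 249 CPM in heterozygous and 218, 284 and 234 CPM in wild-type replicates. These ranges overlap in part, with heterozygous replicate 2 below all wild-type libraries and wild-type replicate 2 above all heterozygous ones. The log2 fold change was −0.12 ± 0.14 (95% interval −0.43 to 0.20, edgeR adjusted p = 0.811), and 0.005 without wild-type replicate 2. Rxra, the partner receptor, measured 336, 449.8 and 368 CPM in heterozygous and 456, 507 and 449.1 CPM in wild-type replicates. Heterozygous replicate 2 lay at the level of the lower wild-type libraries and the others below them (−0.29 ± 0.14, 95% interval −0.60 to 0.02, edgeR adjusted p = 0.417).

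All 9 genes of the mitochondrial spiral had positive log2 fold changes (against 51.0% of all genes), from 0.03 to 0.24 with a median of 0.13. Many members moved together across libraries, so the 9 are not separate observations, and 0 of them passed the threshold. Their 95% intervals all lay between −0.21 and 0.51. Acadm, the medium-chain acyl-CoA dehydrogenase, had 409, 359 and 404 CPM in heterozygous and 298, 345 and 349 CPM in wild-type replicates. The groups were apart, with heterozygous replicate 2 just above wild-type replicate 3 (0.24 ± 0.12, edgeR adjusted p = 0.450). Acadvl, Acadl and Acads, the dehydrogenases for very long, long and short chains, had log2 fold changes of 0.13 ± 0.11, 0.13 ± 0.11 and 0.11 ± 0.11.

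Hadha and Hadhb encode the α and β subunits of the mitochondrial trifunctional protein and are transcribed head to head, their 300-base promoter windows overlapping by 228 bases. Hadha measured 426, 421 and 403 CPM in heterozygous and 364, 357 and 395 CPM in wild-type replicates. The groups were apart but close (0.16 ± 0.11, edgeR adjusted p = 0.593). Hadhb had 121, 133 and 112 CPM in heterozygous and 106, 102 and 113 CPM in wild-type replicates, with heterozygous replicate 3 just below wild-type replicate 3 (0.19 ± 0.11). For Hadhb 52.8% of transcript windows also occur in transcripts of Gm13910, so its count is uncertain. Acaa2, the mitochondrial thiolase that ends each turn of the spiral, had 927, 867 and 974 CPM in heterozygous and 832, 810.3 and 879.5 CPM in wild-type replicates (0.13 ± 0.11). Hadh, the short-chain hydroxyacyl-CoA dehydrogenase, had a log2 fold change of 0.13 ± 0.14, and Etfdh, which passes the electrons on to the respiratory chain, 0.03 ± 0.10.

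The 4 enzymes that prepare unsaturated fatty acids for the spiral were all slightly positive (against 51.0% of all genes). Eci1, a mitochondrial isomerase, had 162, 115 and 177 CPM in heterozygous and 112, 125 and 134 CPM in wild-type replicates. Heterozygous replicate 2 fell within the wild-type range and the other heterozygous libraries above it (0.29 ± 0.16). Decr2, the peroxisomal dienoyl-CoA reductase, had 261, 205 and 244 CPM in heterozygous and 199.5, 236 and 244 CPM in wild-type replicates, a difference of 0.06 ± 0.13 that turned to −0.002 without wild-type replicate 1. Eci2 and the mitochondrial reductase Decr1 had log2 fold changes of 0.16 ± 0.12 and 0.15 ± 0.12.

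The 3 peroxisomal members overlapped between the groups. Ehhadh, the bifunctional enzyme, stood at 707, 429.5 and 533 CPM in heterozygous and 249, 410.2 and 513 CPM in wild-type replicates. Wild-type replicate 1 was low and heterozygous replicate 1 high, and the rest overlapped (0.51 ± 0.29, edgeR adjusted p = 0.539). Acaa1b, a peroxisomal thiolase, had 2543, 1273 and 2825 CPM in heterozygous and 961, 1984 and 2168 CPM in wild-type replicates. Here heterozygous replicate 2 and wild-type replicate 1 were both low (0.38 ± 0.41), and 22.6% of the transcript windows are shared with Acaa1a. Pex11a, which acts in peroxisome division, had a log2 fold change of 0.06 ± 0.20 whose sign turned without heterozygous replicate 1 (−0.03), heterozygous replicate 3 (−0.04) or wild-type replicate 1 (−0.02).

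The Cyp4a ω-hydroxylases, textbook PPARA targets, overlapped between the groups, and Cyp4a14 and Cyp4a10 had the widest ranges among wild-type libraries of all 34 members. Cyp4a14 measured 192, 107 and 246 CPM in heterozygous replicates, against 21.8, 17.8 and 138 CPM in wild-type replicates. Wild-type replicate 3 lay between the heterozygous libraries, whereas wild-type replicates 1 and 2 were far below all of them. Its log2 fold change of 1.61 ± 0.95 was the largest of the 34, but its 95% interval ran from −0.83 to 4.06 (edgeR adjusted p = 0.581). Without wild-type replicate 3 it was 3.20 (edgeR adjusted p = 0.0544), and the adjusted p spanned 0.0544 to 0.905 across the edgeR, DESeq2 and limma alternatives.

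Cyp4a10 had a similar layout, with 245, 109 and 241 CPM in heterozygous and 32.8, 53.9 and 182 CPM in wild-type replicates (1.15 ± 0.75, edgeR adjusted p = 0.631; 2.195 without wild-type replicate 3). Heterozygous replicate 2 was the lowest of its group and wild-type replicate 3 the highest of its own. Cyp4a32 had 44.5, 45.2 and 90.3 CPM in heterozygous and 31.5, 34.3 and 71.3 CPM in wild-type replicates, so that replicate 3 was highest in both groups. Its difference of 0.39 ± 0.44 turned to −0.03 without heterozygous replicate 3. Cyp4a31 had a log2 fold change of 0.08 ± 0.51 that turned to −0.21, −0.20 and −0.15 without heterozygous replicate 3, wild-type replicate 1 and wild-type replicate 2. These neighbouring genes share 8.22% (Cyp4a31) to 20.1% (Cyp4a32) of their windows with other genes, mainly with each other and with Cyp4a10, but for Cyp4a14 the share was 0%.

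Bdh1, the mitochondrial enzyme that makes the ketone body β-hydroxybutyrate, was the ketogenesis gene among the members. It had 287, 248 and 307 CPM in heterozygous and 181, 237 and 228 CPM in wild-type replicates. The groups lay apart (0.38 ± 0.14, 95% interval 0.07 to 0.70, edgeR adjusted p = 0.270). Vnn1, a pantetheinase that frees cysteamine and a known PPARA target, measured 122, 56.0 and 108 CPM in heterozygous and 39.2, 69.4 and 73.8 CPM in wild-type replicates, with heterozygous replicate 2 inside the wild-type range (0.65 ± 0.36, edgeR adjusted p = 0.539). Pdk4, which holds back pyruvate oxidation when fat is burnt, had 14.0, 7.45 and 9.86 CPM in heterozygous and 5.67, 4.57 and 11.7 CPM in wild-type replicates, with wild-type replicate 3 inside the heterozygous range (0.51 ± 0.39).

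**Figure D2:**
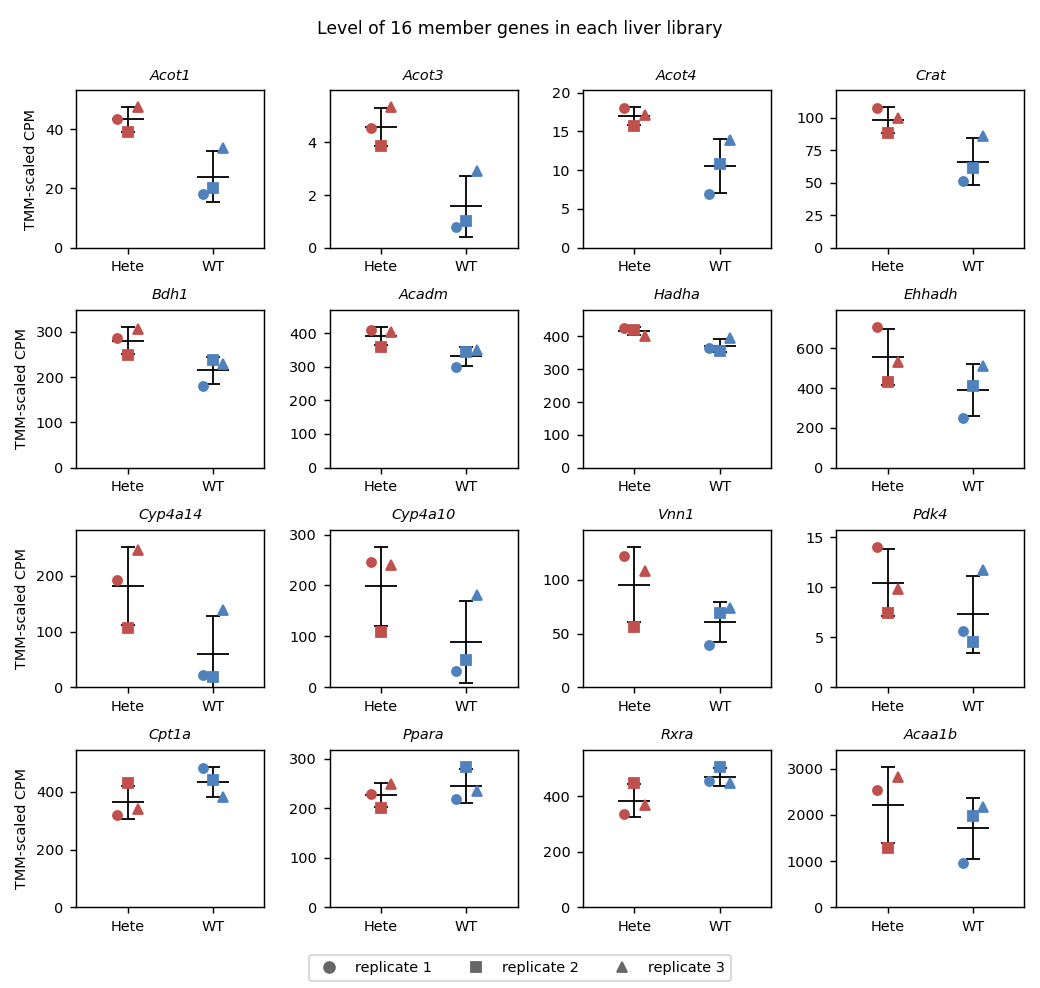
TMM-scaled CPM (y axis, from 0) of 16 members in the 3 heterozygous (red) and 3 wild-type (blue) liver libraries, with markers for the replicate number and bars for mean ± SD. Wild-type replicate 3 (triangle) lies near or inside the heterozygous range for Cyp4a14, Cyp4a10 and Pdk4, while the groups are apart for Acot1, Acot3, Acot4, Crat, Bdh1, Acadm and Hadha.

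Many members were high or low in the same libraries. Of the 3 wild-type libraries, replicate 3 was the highest for 26 of the 34 members and replicate 1 the lowest for 22. Heterozygous replicate 2 was the lowest of its group for 24. Across all 6 libraries, wild-type replicates 1 and 2 were the lowest for 20 and 9 members, and heterozygous replicates 1 and 3 the highest for 13 and 14. The mean log2 CPM over members was 7.10, 6.83 and 7.16 in heterozygous replicates, against 6.42, 6.59 and 6.99 in wild-type replicates, so wild-type replicate 3 lay above heterozygous replicate 2. Within the wild-type group, replicate 3 was 6.34-fold above replicate 1 for Cyp4a14, 5.54-fold for Cyp4a10 and 3.66-fold for Acot3, but 1.17-fold for Acadm. Leaving out the highest wild-type or the lowest heterozygous library tends by design to raise the log2 fold changes of such members. Without wild-type replicate 3, 11 members had an unadjusted p under 0.05 and were higher (against 3.86% of all genes in that fit) and 0 were lower (against 8.16% of all genes). Without heterozygous replicate 2 there were 9 higher (against 3.98% of all genes) and 2 lower (against 8.40% of all genes), the lower being Cpt1a and Rxra. Leaving out heterozygous replicate 1, heterozygous replicate 3 or wild-type replicate 1 gave 4 higher and 0 lower each, without Bdh1. Of all genes, 2.37%, 5.24% and 3.70% were higher in these fits, and 6.17%, 9.59% and 8.24% were lower. A further fit left out both wild-type replicate 1 and heterozygous replicate 2, the lowest of their groups for 22 and 24 members. In it 10 members were higher (against 4.23% of all genes) and 2 lower (against 8.58%). Of the 34, 30 were positive (against 51.7% of all genes), and the median was 0.175 over members and 0.010 over all genes. Because this pair stands out by the member levels themselves, that fit is no independent support. Acot1, Acot3, Acot4 and Crat were higher with an unadjusted p under 0.05 in every one of the 15 other fits. These 4 had the smallest p of the members in the main fit, and the fits reuse the same libraries, so this adds no independent support. By adjusted p, Acot1 passed in 2 of these fits, Acot3 in 1, and Acot4 and Crat in 0.

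**Figure D3:**
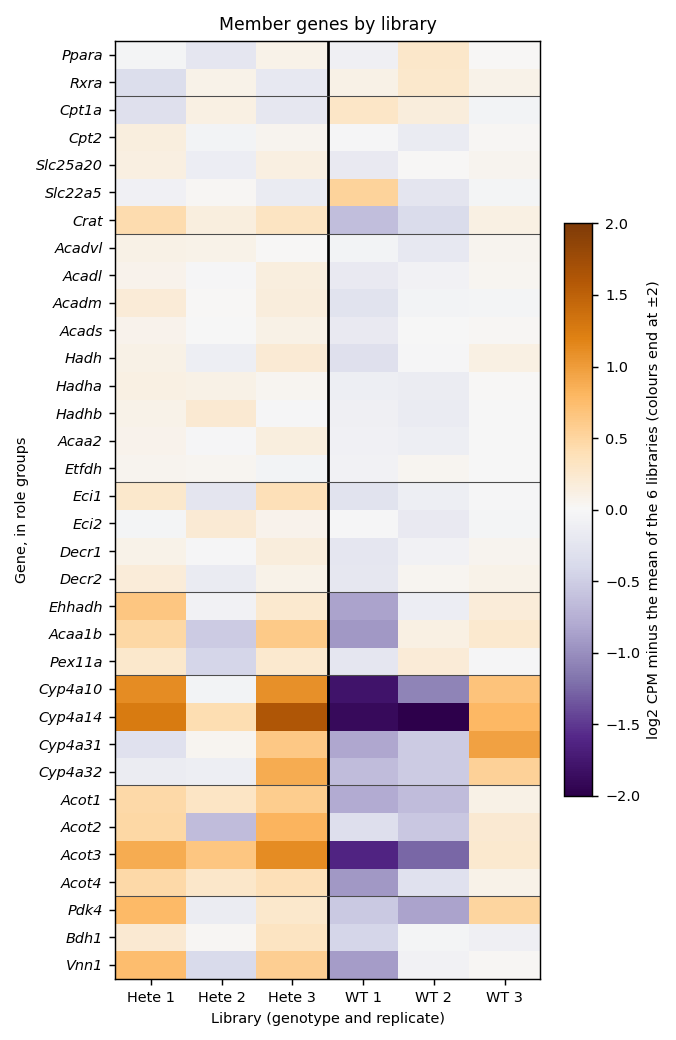
Each row is a member gene and each column a library (3 heterozygous on the left, 3 wild-type on the right). Colour is log2 CPM minus the gene's mean over the 6 libraries, from −2 (purple) to 2 (orange). Wild-type replicates 1 and 2 are purple for the Cyp4a and Acot genes, and wild-type replicate 3 is closer to the heterozygous libraries.

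Other signals differed between the same libraries. Of all genes tested, 51.0% had a positive log2 fold change. Acute phase genes, which inflammation induces in hepatocytes, had a negative log2 fold change for 18 of 18 genes, with 0 past the threshold. Their mean log2 CPM was 8.72, 9.42 and 8.77 in heterozygous and 10.79, 9.24 and 9.58 in wild-type replicates, so wild-type replicate 1 was lowest in members and highest in acute phase genes. Heterozygous replicate 2 was likewise lowest in members and highest in acute phase genes of its group, but wild-type replicate 2 was below wild-type replicate 3 in both. Macrophage and Kupffer cell markers had a negative log2 fold change for 12 of 12 genes. Of these, 5 passed the threshold, against 0.559% of all genes called lower. Summed marker levels were 350 to 385 CPM in heterozygous and 769 to 1324 CPM in wild-type livers. The lowest wild-type library by mean log2 CPM of these markers was replicate 3 (4.80), above all 3 heterozygous libraries. Clec4f, the gene that drives the iCre, had 4.31, 4.97 and 3.90 CPM in heterozygous and 48.6, 38.5 and 5.42 CPM in wild-type replicates. Wild-type replicate 3 thus lay close to the heterozygous libraries for Clec4f, though the groups did not overlap. The heterozygous libraries lay below all wild-type ones for 11 of the 12 markers (against 11.3% of all genes). Hepatocyte markers were mixed, 5 positive and 5 negative, and the list means overlapped between groups (11.91 to 12.19 in heterozygous and 11.79 to 12.20 in wild-type livers). The part of any of these in the member differences was not tested.

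**Figure D4:**
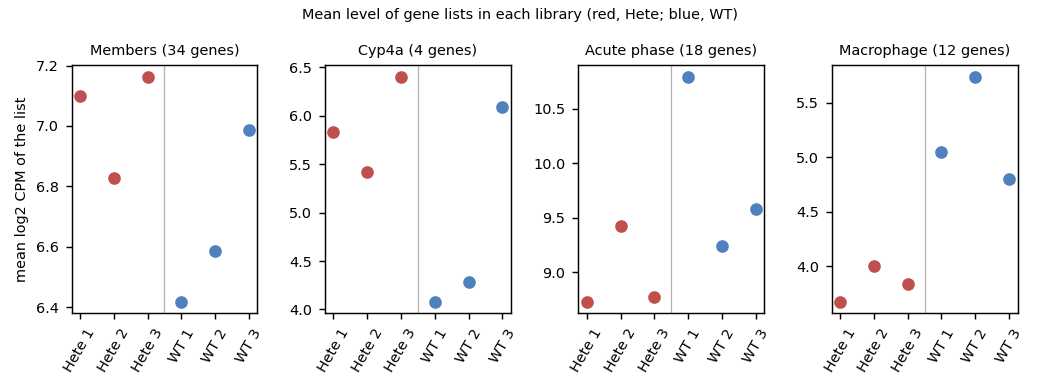
Mean log2 CPM (y axis, a separate scale per panel) of the 34 members, the 4 Cyp4a genes, 18 acute phase genes and 12 macrophage markers in each heterozygous (red) and wild-type (blue) library. Members and Cyp4a genes overlap between groups through wild-type replicate 3, and the macrophage markers do not overlap.

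Other genes of the same pathways came from 2 lists of 72 genes, of which 71 were tested. Of these 45 were positive and 26 negative (63.4% positive, median 0.075), beside 51.0% positive and a median of 0.005 over all genes tested. The threshold was passed by 1 of the 71 (against 0.582% of all genes). Ucp2, a mitochondrial carrier that macrophages also express strongly, fell to 31.2, 33.7 and 48.0 CPM in heterozygous replicates, against 82.0, 93.5 and 80.2 CPM in wild-type replicates (−1.18 ± 0.17, edgeR adjusted p = 0.0336). The groups lay far apart, and the summed macrophage marker level differed between them in the same direction, which was not tested as a source.

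Acsl1, which activates long-chain fatty acids, had 1290.0, 1064 and 1024 CPM in heterozygous and 652, 940.1 and 942 CPM in wild-type replicates (0.42 ± 0.17, edgeR adjusted p = 0.340). The groups lay apart, with wild-type replicate 1 well below the other libraries. Ech1, a dienoyl-CoA isomerase, and Crot, which links peroxisomal acyl groups to carnitine, had log2 fold changes of 0.30 ± 0.12 and 0.31 ± 0.16.

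Fgf21, the fasting hormone of the liver and a PPARA target, was low at 3.26, 4.91 and 3.44 CPM in heterozygous replicates, against 1.83, 1.90 and 3.01 CPM in wild-type replicates. The groups were apart (0.78 ± 0.29, edgeR adjusted p = 0.282). Rxrg, a second RXR gene, also stood apart at 6.29, 6.30 and 6.82 CPM in heterozygous and 3.23, 3.54 and 4.60 CPM in wild-type replicates (0.77 ± 0.21, edgeR adjusted p = 0.128). Txnip, a sugar-responsive gene, was lower without overlap, at 108, 72.8 and 112 CPM in heterozygous and 147, 141 and 196 CPM in wild-type replicates (−0.73 ± 0.19, edgeR adjusted p = 0.130). These 3 genes, like the members, did not pass the threshold over all genes.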

How the data were processed

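RNA of 6 liver samples (TRIzol, 500 ng, stranded mRNA kit, per the labels' protocols) was sequenced. The submitters' processing notes list HTSeq 0.9.1, HISAT2 2.2.1.0, Trimmomatic 0.36 and the build GRCm39. The sources used here name neither the annotation nor the counter's strand setting. What the authors deposited is a table of raw counts by gene symbol, not normalized. Genes that overlap on opposite strands are therefore uncertain. Groups and replicate numbers come from the sample titles, and the labels do not tie each sample to its own animal, so each p-value rests on differences among samples that may be technical.

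In R 4.3.3, genes were filtered (filterByExpr), TMM-scaled and tested with edgeR 4.0.16 (glmQLFit, robust, and glmQLFTest, no covariates), with Benjamini-Hochberg adjustment over all 12706 genes tested at 0.05. SE is the absolute log2 fold change over the square root of F. List means use log2 CPM with a prior count of 2. Alternatives were RLE and upper-quartile scaling, no filter, 1 CPM in 3 samples, DESeq2 1.42.0, limma-voom 3.58.1, a non-robust fit, the replicate block, and libraries left out. Chi-square per degree of freedom between libraries was at least 22.1, so no 2 agree within sampling noise.

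The members and lists were chosen with earlier results of these data known. Values in every library are given for Ppara, Rxra, the 12 members with the smallest p and the most abundant member of each role. Hadha, Acot2, Cyp4a14, Cyp4a32, Pdk4, Dbp, Ppargc1a and Clec4f were added after their values were seen. From other lists, genes past the threshold and up to 4 with the smallest p could be named. Some genes that this rule names are not reported here. Promoters are from RefSeq (GRCm38.p6), with 27 of 34 members matched, and transcript windows from GENCODE M21; no coordinates of GRCm39 are given.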

Additional observations from a re-analysis of the deposited data

How the results depend on the processing

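The median log2 fold change of the members stayed positive in all 15 alternatives, between 0.16 and 0.23, and 27 to 30 members were positive. Over those fits 28 members kept their sign in every one. The signs that turned were those of Ppara (0.005 without wild-type replicate 2, −0.191 to 0.005), Slc22a5 (0.083 without wild-type replicate 1, −0.34 to 0.083 over single libraries left out, 0.027 with that library and heterozygous replicate 2 both left out), Decr2 (−0.002 without wild-type replicate 1, −0.002 to 0.157), Pex11a (−0.033, −0.038 and −0.017 without heterozygous replicate 1, heterozygous replicate 3 or wild-type replicate 1, −0.038 to 0.255), Cyp4a32 (−0.026 without heterozygous replicate 3, −0.026 to 0.869) and Cyp4a31 (−0.214, −0.202 and −0.149 without heterozygous replicate 3, wild-type replicate 1 or wild-type replicate 2, −0.214 to 0.85, −0.143 with that pair left out). None of these was past the threshold in any fit. The number of members past the threshold was 0 in edgeR with all libraries, 2 in DESeq2 (both higher), 1 without wild-type replicate 3, 0 to 1 over all single libraries left out, and 0 in the other fits.

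Over all genes edgeR called 74 (71 lower, 3 higher). The count was 37 with upper-quartile scaling (36 lower, 1 higher), 211 with no filter on low counts (190 lower, 21 higher), 48 with at least 1 CPM in 3 samples (47 lower, 1 higher), 534 in DESeq2 (452 lower, 82 higher), 20 in a non-robust fit (20 lower, 0 higher) and 4 with the pair left out (4 lower, 0 higher). Leaving out single libraries gave 0 to 122 (0 to 107 lower, 0 to 15 higher), with 0 without heterozygous replicate 1 or 2 (1104 and 1601 genes at an unadjusted p under 0.05) and the most without heterozygous replicate 3. limma-voom called 0 genes, with 1686 at an unadjusted p under 0.05. With the replicate block edgeR called 0 genes, 0 lower and 0 higher, with 1427 at an unadjusted p under 0.05. Deviations of same-numbered libraries from their group means correlated at −0.21, −0.31 and 0.19, so the numbers were not read as pairs. The cause of these changes was not tested. With 3 libraries a group, an exact permutation test of a single value cannot go below 0.1, and the intervals of the Cyp4a genes are too wide to show differences of their observed size.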

Other observations

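Genes that follow the time of day and feeding, which also move PPARA targets in liver, were read in the same libraries as values only. Of the 15 listed genes in the table, 6 had a positive and 9 a negative log2 fold change, and 0 passed the edgeR threshold. Ciart, a repressor of the clock, had 0.291, 1.64 and 1.43 CPM in heterozygous and 9.15, 17.2 and 1.86 CPM in wild-type replicates. It was lower without overlap, wild-type replicate 3 being close to the heterozygous livers (−3.065 ± 0.96, edgeR adjusted p = 0.256). Per3, a clock gene, had 2.62, 1.21 and 3.44 CPM in heterozygous and 3.29, 9.20 and 3.78 CPM in wild-type replicates. Dbp, a clock output gene with a steep daily rhythm, stood at 2.16, 1.70 and 7.63 CPM in heterozygous and 5.92, 39.4 and 4.93 CPM in wild-type replicates, so wild-type replicate 2 stood apart. Srebf1, which drives lipogenesis, measured 749.7, 575 and 598 CPM in heterozygous and 296, 508 and 454 CPM in wild-type replicates, with no overlap (0.61 ± 0.21, edgeR adjusted p = 0.224). Ppargc1a, a PPARA coactivator induced by fasting, was at 28.9 CPM in heterozygous replicate 2 and between 5.31 and 7.97 CPM in the other libraries. The sources used here give no time of feeding or collection.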
